A study of Mus musculus with 22 samples.

Results

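The glycogen genes examined here were 10 of the 39179 genes counted in this RNA-sequencing study of mice and cells lacking *Phf8*, an X-linked gene for a histone demethylase. They were listed by symbol and found by gene identifier, and were chosen because *Ppp1r3e* was lower in *Phf8* KO than in WT neural progenitor cells (NPCs). The values of that comparison therefore chose the list and are given below as a description, without a test, while the other tissues were not used for the choice. The 22 samples came from embryonic stem cells (ESCs), with 2 of each genotype, and from NPCs and 2 regions of the adult brain, prefrontal cortex (PFC) and ventral striatum (STR), with 3 of each genotype. All samples shared a B6x129SvJ strain background, which is mixed, so they need not be genetically alike. The KO allele lacked exons 7 and 8, which were flanked by loxP sites and removed by Cre in V6.5 ESCs that had been expanded as clones, so the cells derived from these clones carried it whatever their type, and WT samples carried an intact gene. ESC lines were grown out of blastocysts and kept on gelatin or on feeder cells, which do not derive from the clones, NPCs came from E16.5 embryos and were grown as a monolayer, and the brain regions were taken from mice aged 2 months. The labels number the samples but do not say which came from separate animals or cultures, so p-values measure only the spread between these samples.

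Glycogen is the stored form of glucose, and in the brain it is held mainly by astrocytes. Glycogen synthase (*Gys1*) lengthens its chains, the branching enzyme (*Gbe1*) adds branch points, and glycogen phosphorylase (*Pygb* is the brain form) releases glucose units from it. The *Ppp1r3* genes encode targeting subunits that bring protein phosphatase 1 to glycogen, where it dephosphorylates the synthase, which activates it, and the phosphorylase, which lowers its activity. *Stbd1* encodes a carbohydrate-binding protein that anchors glycogen to membranes.

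Samples had 5898286 to 15539811 reads counted on genes. Levels are given as CPM, which are counts scaled to a common library size, with TMM factors over all 22 samples, and, where genes are compared with each other, as RPKM, which is CPM per kilobase of exons. *Phf8* itself was lower in every KO than in every WT sample of its tissue, from a mean of 67.3 to 19.4 CPM in ESCs (n = 2 each), 41.8 to 15.6 in NPCs, 46.6 to 17.9 in STR and 43.1 to 16.9 in PFC (n = 3 each). Its remaining reads can come from the exons that were kept. Some libraries stood apart. ESC replicate 2 had summed levels of 6 fibroblast or feeder markers of 3454 CPM in WT and 4207 CPM in KO, against 156 and 148 CPM in replicate 1. NPC replicate 2 had summed levels of 6 oligodendrocyte markers of 219 CPM in WT and 411 CPM in KO, against 1872 to 3118 CPM in the other 4 NPC libraries. In STR, 6 hypothalamic markers summed to 3.40, 1.98 and 1.32 CPM in WT and to 127, 16.8 and 5.94 CPM in KO, so every KO library was above every WT library, and leaving out KO replicate 1 does not take that difference away. Their part in the STR results below was not tested. KO STR replicate 1 also had 64.1 CPM of 4 cortical markers, against 321 to 492 CPM in the other 5 STR libraries. Pluripotency markers summed to 3358 to 4221 CPM in ESCs and at most 6.15 CPM elsewhere, and striatal markers to 729 to 999.7 CPM in STR and at most 132.6 CPM in PFC.

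The stretches before the start sites of 4 members are shown because these genes lie towards both ends of the differences between cell types described below. *Ppp1r3c* and *Ppp1r3d* were among the members that differed most between WT ESCs and WT NPCs, and *Gys1* and *Stbd1* were not called in that comparison. *Ppp1r3d* entered that comparison only through its NPC levels, so its difference is a description. The sequences are from RefSeq on GRCm38.p6, written 5′ to 3′ on the strand of the gene, and start 250 bases before its RefSeq start. Each is stopped before the first base of an exon of the gene in GENCODE M21. Capitals mark the letters ACGTG (a form of the core of hypoxia response elements, also found in CACGTG) and CCAAT on either strand. The other form of that core, GCGTG, was not searched for. The stretches lie at chr19:36736654-36736854 (minus strand, *Ppp1r3c*), chr2:178414473-178414713 (minus strand, *Ppp1r3d*), chr7:45434589-45434838 (plus strand, *Gys1*) and chr5:92602801-92603040 (plus strand, *Stbd1*).
*Ppp1r3c*: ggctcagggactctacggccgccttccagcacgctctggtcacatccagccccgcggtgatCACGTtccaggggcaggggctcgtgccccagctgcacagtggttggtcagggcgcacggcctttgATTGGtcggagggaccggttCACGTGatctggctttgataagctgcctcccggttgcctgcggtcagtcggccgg
*Ppp1r3d*: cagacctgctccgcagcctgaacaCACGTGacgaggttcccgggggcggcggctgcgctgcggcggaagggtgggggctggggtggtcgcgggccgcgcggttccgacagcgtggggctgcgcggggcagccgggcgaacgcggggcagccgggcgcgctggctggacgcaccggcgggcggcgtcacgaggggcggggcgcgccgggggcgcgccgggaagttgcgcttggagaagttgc
*Gys1*: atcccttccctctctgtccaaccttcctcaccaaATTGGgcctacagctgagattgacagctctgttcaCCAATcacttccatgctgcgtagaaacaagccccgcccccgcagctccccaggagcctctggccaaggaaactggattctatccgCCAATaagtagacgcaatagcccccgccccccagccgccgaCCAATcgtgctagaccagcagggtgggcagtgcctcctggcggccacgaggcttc
*Stbd1*: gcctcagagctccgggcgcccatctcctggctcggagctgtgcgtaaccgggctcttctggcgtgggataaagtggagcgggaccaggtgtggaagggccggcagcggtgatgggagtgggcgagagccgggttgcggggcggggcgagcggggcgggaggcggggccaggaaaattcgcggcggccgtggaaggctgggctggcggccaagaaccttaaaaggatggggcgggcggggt

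The promoter table held 8 of the 10 members. *Ppp1r3b* and *Ppp1r3e* were not in it, so their promoters were not searched. The E-box CACGTG was in the 250 bases of 6.02% of all 32851 promoters and, among the members, in those of *Ppp1r3c* (first base 104 before the start) and *Ppp1r3d* (226 before the start). ACGTG, which every CACGTG also contains, was in 16.57% of all promoters and in those of *Ppp1r3c*, *Ppp1r3d*, *Ppp1r3g* and *Pygb*. CCAAT on either strand was in 33.85% of all promoters. It occurred 4 times in that of *Gys1*, 3 times in that of *Ppp1r3f* and once each in those of *Ppp1r3c* and *Ppp1r3g*. The 250 bases of *Stbd1* and of *Gbe1* held none of these letters. *Gbe1*, *Ppp1r3f* and *Pygb*, which have no CACGTG and are not shown, were also called higher in WT NPCs than in WT ESCs. Nothing about cell types is read from these letters. GC content ranged from 48.8% (*Gbe1*) to 79.2% (*Ppp1r3d*), beside a median of 52.4% over all promoters. These matches are of letters only, and binding was not measured.

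*Ppp1r3e* (ENSMUSG00000072494) lies on the minus strand of chromosome 14 of GRCm38 from 54872669 to 54877550, overlapping no other annotated gene. In WT NPCs its level was 19.0, 16.1 and 21.5 CPM, and in KO NPCs it was 4.48, 3.64 and 5.37 CPM. All 3 KO libraries were far below all 3 WT libraries, and the counts behind them were 174 to 293 reads in WT and 46 to 68 reads in KO. The log2 fold change was -2.06 (SE 0.20), a level 4.18-fold lower in KO, and this is the value for which the genes were chosen. The other 9 members had log2 fold changes between -0.20 (*Stbd1*) and 0.18 (*Ppp1r3d*) in NPCs, and the groups of each of them overlapped. Every KO library was below every WT library for 4.72% of all 14351 genes tested in NPCs, from which nothing is read about *Ppp1r3e*, since it was chosen for its values there. Over all genes, 0.00697% were called in NPCs at an FDR under 0.05, the threshold used throughout. The test was the quasi-likelihood test of edgeR with Benjamini-Hochberg adjustment, and the 1 gene called was *Phf8* itself (FDR 0.0285).

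**Figure D1:**
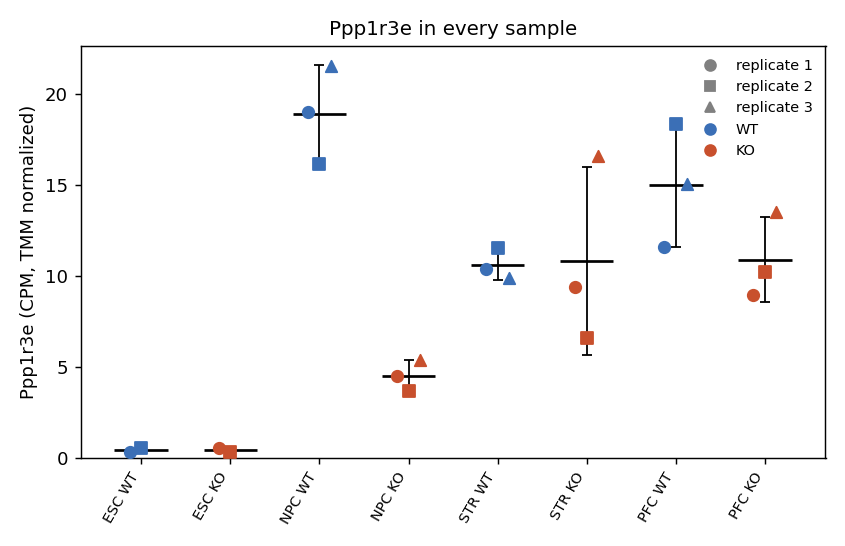
The level of *Ppp1r3e* (vertical axis, CPM after TMM scaling) in each of the 22 samples, grouped by tissue and genotype, with symbols for replicate numbers, lines for group means and bars for 1 SD. The 3 KO NPC libraries sit between 3.64 and 5.37 CPM, below the 16.1 to 21.5 CPM of the WT NPC libraries, while WT and KO ranges overlap in ESCs, STR and PFC.

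In the other tissues *Ppp1r3e* was not called lower in KO. The WT PFC samples had 11.6, 18.3 and 15.1 CPM and the KO PFC samples 8.95, 10.2 and 13.5 CPM. The KO samples were lower on average, but the highest KO sample was above the lowest WT sample. The log2 fold change was -0.49 (SE 0.20, 95% interval -0.91 to -0.06), with an unadjusted p of 0.0281 and an FDR of 0.360 in the edgeR test. Without WT replicate 2, the highest sample, it was -0.29 (FDR 0.623), and without KO replicate 3 it was -0.67 (FDR 0.480 in the same test). Oligodendrocyte markers were also lower in KO PFC, where 6 of 6 had a negative log2 fold change (3 called). They summed to 1691 to 2245 CPM in WT and 1385 to 1478 CPM in KO samples. Of 8 astrocyte markers, 7 had a negative log2 fold change (1 called). Their sums overlapped, at 2199 to 2461 CPM in WT and 2144 to 2265 CPM in KO samples. Of 4 microglia markers, 3 had a negative log2 fold change (0 called). Their sums were 240 to 264 CPM in WT and 238 to 259 CPM in KO samples. None of the 14 oligodendrocyte and astrocyte markers was at 0. The part of these markers in the PFC values of *Ppp1r3e* and of the members below was not tested. In STR the WT samples were close together, at 10.4, 11.5 and 9.85 CPM, and the KO samples were spread on both sides of them, at 9.36, 6.55 and 16.6 CPM. The log2 fold change there was 0.03 (SE 0.29, 95% interval -0.63 to 0.68, FDR 0.991 in the edgeR test). It had no stable direction, being -0.40 without KO replicate 3 (FDR 0.585 in the same test), -0.02 without WT replicate 3, -0.04 with the replicate number as a block and 0.11 without KO replicate 1. In ESCs the gene was close to absent, with 3 and 6 reads in WT and 6 and 3 reads in KO libraries, and it did not pass the filter on low counts.

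With the 16 samples of ESCs, STR and PFC fitted together and tissue as a covariate, the log2 fold change of *Ppp1r3e* was -0.21 (SE 0.19, 95% interval -0.61 to 0.19, FDR 0.880 in the edgeR test). It was 0.02 without the PFC samples and -0.39 without the STR samples. This fit treats all samples as independent, although STR and PFC samples of the same number and genotype correlated in every pair (r from 0.13 to 0.35), so its errors and p-values may be too small. The KO effect in PFC minus that in STR was -0.48 (95% interval -1.30 to 0.34, FDR 0.980 in the edgeR test), so a difference between the regions was not detected. That fit too treats the samples as independent, but for a difference between positively correlated regions its errors may instead be too large. With a block shared by the regions the difference was -0.42 (FDR 0.631). NPC samples were in none of these fits.

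Ranked by group mean, *Ppp1r3e* was highest in WT NPCs (18.9 ± 2.68 CPM, SD, n = 3) and lowest in ESCs (0.412 ± 0.151 CPM in WT and 0.419 ± 0.172 CPM in KO, SD, n = 2 each). WT PFC (15.0 ± 3.39), KO PFC (10.9 ± 2.34), KO STR (10.8 ± 5.16) and WT STR (10.6 ± 0.851, CPM, SD, n = 3 each) followed WT NPCs, and each of these neighbours in the order overlapped the next. KO NPCs (4.50 ± 0.863 CPM, SD, n = 3) overlapped neither the STR groups above nor the ESC groups below. Cultured cells were counted without strand, and the strand setting for brain is not given in the sources used here, so cultured cells were not tested against brain, and levels across the 2 kinds are side by side only. In bulk RNA, fewer cells of a type and less RNA per cell cannot be told apart. The 8 astrocyte markers summed to 7430, 4415 and 6095 CPM in WT and to 8308, 4824 and 6905 CPM in KO NPCs, higher in KO within each same-numbered pair, and their part in the NPC values was not tested.

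Among genes whose start lay within 100 kb of that of *Ppp1r3e*, 9 were tested in NPCs (*Homez*, *Bcl2l2*, *Pabpn1*, *Slc22a17*, *Efs*, *Il25*, *Cmtm5*, *Myh6* and *Myh7*). Their log2 fold changes in KO NPCs were between -0.78 (*Il25*) and 0.44 (*Myh7*), and 0 of the 9 had WT and KO libraries that did not overlap. KO was lower without overlap for 4.72% of all genes tested in NPCs. In ESCs, *Efs* was higher in every KO than in every WT library, as were 11.3% of genes there (log2 fold change 0.15, not called). In PFC, *Cmtm5*, which is expressed in oligodendrocytes, was lower in every KO sample, as were 8.42% of all genes tested there (log2 fold change -0.46, FDR 0.0539 in the edgeR test). The 6 oligodendrocyte markers summed to 1385 to 1478 CPM in KO and 1691 to 2245 CPM in WT PFC, and their part in that value was not tested.

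Over all 22 samples the genes whose log2(CPM + 0.5) was most like that of *Ppp1r3e*, of 18080 genes, were *Ulk2* (Pearson r = 0.957), *Ptpn11* (0.946), *Kctd4* (0.938), *Fam168b* (0.937) and *Podxl2* (0.935). These samples share 4 tissues, and differences between tissues carry most of such an r. Among the members r was highest for *Ppp1r3d* (0.885), *Ppp1r3f* (0.826) and *Pygb* (0.823) and lowest for *Gys1* (-0.468). After the mean of each tissue was taken off, the most alike were *Clec2l* (0.855), *Kctd6* (0.807), *Gm26782* (0.792), *Psmb5* (0.777) and *Slc25a51* (0.770). The NPC values that chose the list enter this r. All 5 genes were lower in every KO than in every WT NPC library, with log2 fold changes from -0.34 (*Slc25a51*) to -2.07 (*Gm26782*). So were the 5 genes named first, from -0.09 (*Fam168b*) to -0.64 (*Ulk2*), beside 4.72% of all genes tested in NPCs. Genes chosen for likeness to *Ppp1r3e* were chosen partly by its NPC values, so nothing is read from these falls. *Kctd6*, *Gm26782* and *Psmb5* lie on chromosome 14 as *Ppp1r3e* does, with starts at 8214140, 50870324 and 54614119, and *Clec2l* and *Slc25a51* lie on chromosomes 6 and 4. Among the members the highest such r was 0.33 (*Gbe1*).

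*Ppp1r3g* encodes another subunit of this family and was the member with the smallest unadjusted p-values for KO against WT outside NPCs. The WT STR samples had 13.6, 14.3 and 13.5 CPM and the KO STR samples 9.14, 10.6 and 8.59 CPM. All 3 KO samples were below all 3 WT samples, as for 6.31% of all genes tested there. The log2 fold change was -0.54 (SE 0.15, 95% interval -0.87 to -0.21, unadjusted p 0.00492, FDR 0.411 in the edgeR test), and -0.52 without KO replicate 1. The WT PFC samples had 19.4, 20.8 and 19.9 CPM and the KO PFC samples 16.7, 16.9 and 15.6 CPM. These groups did not overlap either, as for 8.42% of all genes tested in PFC with KO lower. The log2 fold change in PFC was -0.30 (SE 0.11, 95% interval -0.54 to -0.06, unadjusted p 0.0173, FDR 0.301 in the edgeR test).

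KO samples were thus lower without overlap in both brain regions for *Ppp1r3g*, which held for 159 of 14954 genes (1.06%) and for no other member. The samples of the regions are not independent, since same-numbered ones correlated. In ESCs it had 8 and 11 reads in WT and 5 and 6 reads in KO libraries, below the filter of that comparison. The WT NPC libraries had 7.25, 0.928 and 10.9 CPM and the KO ones 8.44, 0.713 and 9.0 CPM, so genotype groups overlapped and replicate 2 was low in both. With ESCs, STR and PFC together, the log2 fold change was -0.44 (SE 0.09, 95% interval -0.63 to -0.26, unadjusted p 1.1e-04), and the FDR was 0.129 in the edgeR test. DESeq2 on the same samples gave an FDR of 0.0439, and over all alternatives the FDR ran from 0.0439 to 1.0. Without KO STR replicate 1 it was 0.166, and a block for replicate number gave 0.0849 (log2 fold change -0.43). The caution above about same-numbered STR and PFC samples holds for this fit and its interval too. The KO effect did not differ detectably between the regions (PFC minus STR 0.26 on the log2 scale, 95% interval -0.08 to 0.61, FDR 0.898 in the edgeR test).

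Of the remaining subunits, none was called in a KO comparison outside NPCs. *Ppp1r3b*, the main subunit of liver, was at 1.90, 1.16 and 2.28 CPM in WT and 2.45, 2.44 and 2.65 CPM in KO STR samples. The KO samples were higher without overlap, from 10 to 22 reads per library, and the log2 fold change was 0.50 (SE 0.31, 95% interval -0.19 to 1.19, FDR 0.710 in the edgeR test). *Ppp1r3d*, a subunit with wide tissue expression, was at 13.5, 13.5 and 14.9 CPM in WT and 15.5, 17.6 and 15.4 CPM in KO STR samples. It too did not overlap, with a log2 fold change of 0.22 (SE 0.13, 95% interval -0.08 to 0.51, FDR 0.698 in the edgeR test). KO was higher without overlap for 6.84% of all genes in STR, beside 2 of the 10 members. Without KO replicate 1 the values were 0.51 for *Ppp1r3b* and 0.24 for *Ppp1r3d*. In PFC the values of both genes overlapped between genotypes, with log2 fold changes of -0.07 for *Ppp1r3b* and 0.01 for *Ppp1r3d*.

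*Ppp1r3c*, the subunit also called protein targeting to glycogen, was at 51.4 to 62.0 CPM in WT and 49.7 to 59.4 CPM in KO STR. In PFC it was at 56.0 to 72.3 CPM in WT and 39.1 to 58.3 CPM in KO samples, with a log2 fold change of -0.28 (SE 0.15, 95% interval -0.60 to 0.05, FDR 0.552 in the edgeR test). *Ppp1r3f*, which lies on the X chromosome as *Phf8* does and overlaps *Foxp3* and *Flicr* on the other strand, had log2 fold changes of 0.15 in ESCs, 0.09 in STR and 0.05 in PFC. Its KO ESC libraries (2.97 and 3.07 CPM) were above the WT ones (2.85 and 2.59 CPM), as were those of 11.3% of genes in ESCs, where there were 2 libraries of each genotype.

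None of the enzymes *Gbe1*, *Gys1* and *Pygb* was called in a KO comparison outside NPCs. The PFC samples had 18.1, 19.6 and 17.1 CPM of *Gbe1* in WT and 16.4, 16.4 and 16.6 CPM in KO. The KO samples were lower without overlap, as for 8.42% of all genes tested in PFC, beside 2 of the 10 members. The log2 fold change of *Gbe1* was -0.17 (SE 0.11, 95% interval -0.41 to 0.08, FDR 0.676 in the edgeR test), while in STR its value was 0.01. *Gys1*, which overlaps *Ruvbl2* on the other strand, had log2 fold changes of -0.0035 in ESCs, -0.05 in STR and -0.14 in PFC, each with overlapping groups. *Pygb* had -0.07 in ESCs, 0.16 in STR (95% interval -0.03 to 0.36, unadjusted p 0.0969, FDR 0.662 in the edgeR test) and -0.07 in PFC. The 95% interval of *Gys1* was -0.38 to 0.10 in PFC, narrower than in ESCs, where it ran from -0.58 to 0.58.

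Counted together, 0 of 7 members tested in ESCs, 0 of 10 in STR and 0 of 10 in PFC were called at an FDR under 0.05 in edgeR, beside 0%, 0% and 0.638% of all genes. Unadjusted p-values under 0.05 were found for 0, 1 and 2 members, beside 1.13%, 8.70% and 11.2% of all genes, and DESeq2 also called 0 in each. *Ppp1r3d*, *Ppp1r3e* and *Ppp1r3g* did not pass the ESC filter. *Phf8* itself was called in PFC (FDR 0.00193) but not in STR (log2 fold change -1.37, FDR 0.0956) or ESCs (-1.79) in edgeR. No call in ESCs or STR therefore does not show that a member was unchanged. The median log2 fold change of the members was 0.15 in ESCs, 0.06 in STR and -0.11 in PFC, beside 0.01, 0.00 and -0.02 over all genes tested. With the 3 tissues together 0 of 10 members were called, beside 0.0283% of all genes, and 1 had an unadjusted p under 0.05, beside 8.31% of all genes, and was called by DESeq2 (*Ppp1r3g*). For the KO effect in PFC minus that in STR, 0 of 10 were called by edgeR and by DESeq2, 0 had an unadjusted p under 0.05, beside 6.41% of all genes, and 0.00624% of all genes were called.

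**Figure D2:**
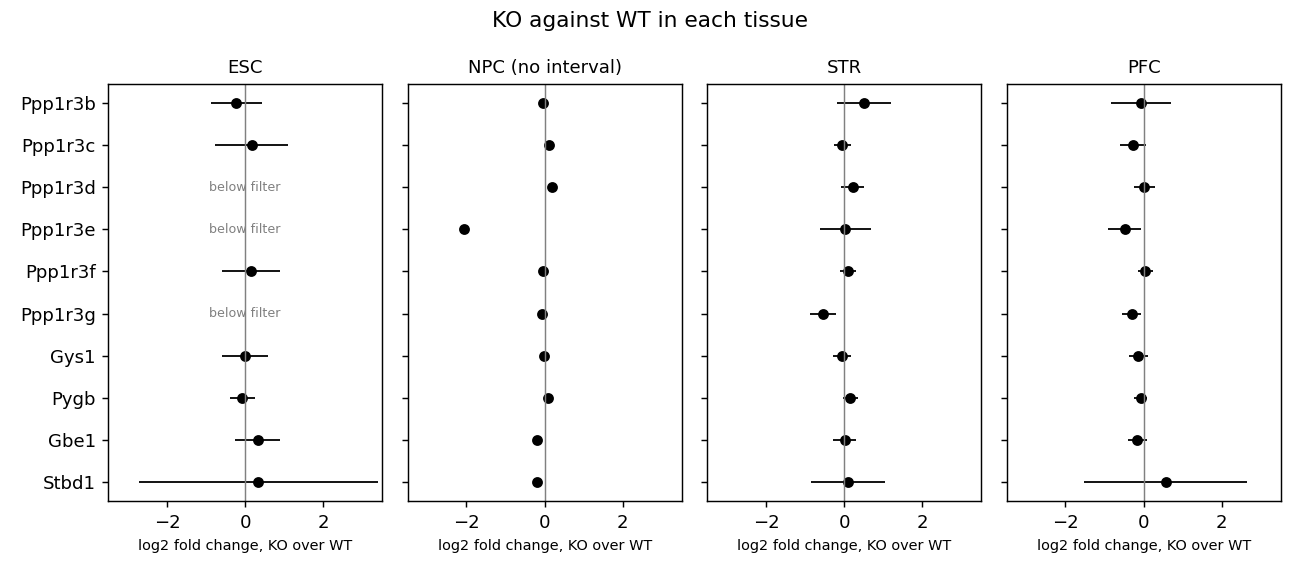
Log2 fold changes of KO over WT (horizontal axis) for the 10 members (vertical axis) in ESCs, NPCs, STR and PFC, with lines for the 95% intervals. NPCs have no interval because that comparison chose the genes, and members that did not pass the ESC filter are marked. *Ppp1r3e* stands at -2.06 in NPCs and at 0.03 and -0.49 in STR and PFC, and *Stbd1* has the widest intervals.

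*Stbd1* differed among samples of a genotype more than between genotypes. In NPCs it was at 5.37, 1.30 and 3.52 CPM in WT and 5.19, 0.633 and 3.08 CPM in KO libraries, lowest in replicate 2 of both genotypes. In ESCs it was at 1.32 and 3.63 CPM in WT and 0.901 and 5.35 CPM in KO libraries, lower in replicate 1 of both. Thus the ESC libraries with high *Stbd1* were those with high fibroblast or feeder markers. The NPC libraries with low *Stbd1* were those with low oligodendrocyte markers. Those NPC libraries were also lowest in summed astrocyte markers (4415 CPM in WT, 4824 CPM in KO) and neural progenitor markers (2668 and 2953 CPM). The part of those cells in the levels was not tested.

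In brain, *Stbd1* varied in parallel in both regions. WT STR was at 3.60, 1.74 and 5.16 CPM and WT PFC at 10.01, 1.75 and 8.47 CPM, lowest in replicate 2 of each. KO STR was at 4.46, 4.55 and 2.02 CPM and KO PFC at 12.5, 13.3 and 2.70 CPM, lowest in replicate 3 of each. The lowest libraries therefore carried the same number in both regions, a WT number in one case and a KO number in the other. In no brain group did the library lowest in *Stbd1* have the lowest sum of oligodendrocyte markers. In WT STR that library had the highest sum (1694 CPM). Between genotypes its log2 fold change was 0.34 in ESCs (95% interval -2.71 to 3.38), 0.09 in STR (-0.85 to 1.03) and 0.56 in PFC (-1.53 to 2.65), so 2-fold changes in either direction lay within the interval in ESCs and in PFC.

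*Ppp1r3b* also varied with the replicate number in NPCs, at 13.8, 6.59 and 29.3 CPM in WT and 18.6, 6.02 and 24.0 CPM in KO libraries. Replicate 2 was lowest in both genotypes for *Ppp1r3b*, *Ppp1r3c*, *Ppp1r3d*, *Ppp1r3g*, *Gys1*, *Pygb* and *Stbd1*. For *Ppp1r3f* replicate 2 was instead the highest library of each genotype, at 15.6 CPM in WT and 16.1 CPM in KO. For *Gbe1* replicate 2 was the highest WT library, at 184.5 CPM, and lay between the other KO libraries, at 120.1 CPM. *Ppp1r3e* was also lowest in replicate 2 of each genotype, but by less than the distance between genotypes.

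**Figure D3:**
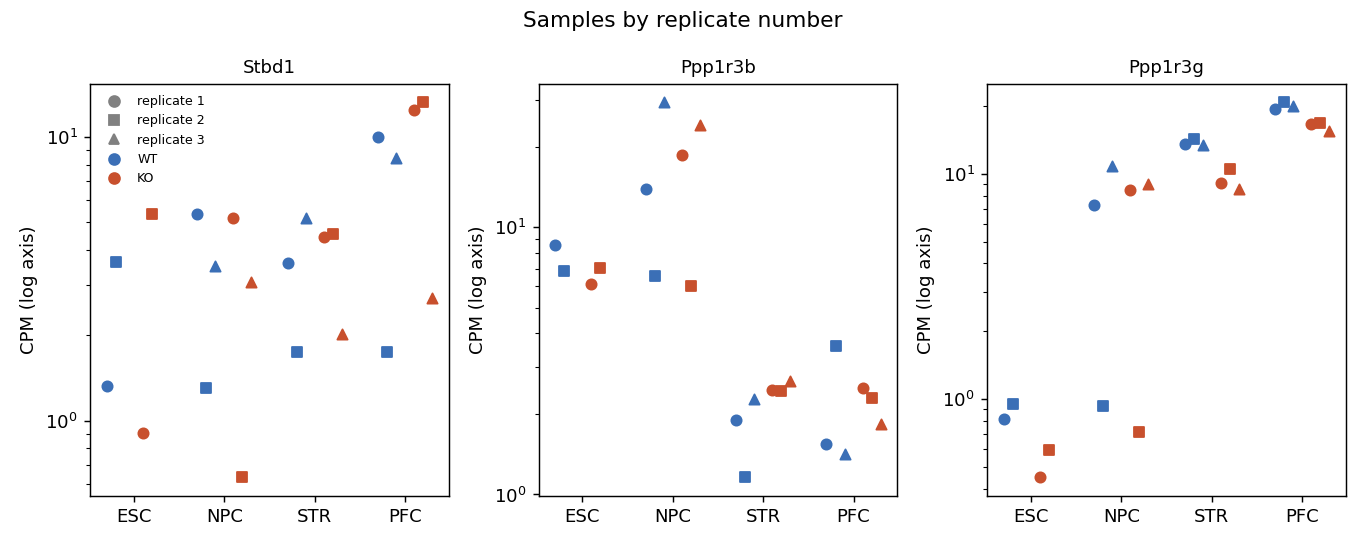
Levels of *Stbd1*, *Ppp1r3b* and *Ppp1r3g* (vertical axes, CPM, log scale) in each sample by tissue, with WT at the left and KO at the right of each tissue and symbols for replicate numbers. NPC replicate 2 is lowest for all 3 genes in both genotypes, *Stbd1* is lowest in WT replicate 2 and KO replicate 3 of both brain regions, and *Ppp1r3g* is lower in every KO than in every WT sample of STR and of PFC.

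Between WT NPCs and WT ESCs, *Ppp1r3d*, *Ppp1r3e* and *Ppp1r3g* entered the test only through their NPC levels, since they did not pass the filter in ESCs, and they are left out of the count. Of the other 7 members, 4 were higher in NPCs at an FDR under 0.05 in the edgeR test, beside 34.6% of all genes called higher, and 0 were called lower, beside 36.6%. The WT NPC libraries of this comparison also entered the one that chose the list. *Ppp1r3c* was at 2.34 and 3.03 CPM in ESCs and at 438, 433 and 569 CPM in NPCs. No library came near the other group, and the log2 fold change was 7.57 (SE 0.25, FDR 4.4e-05), a 190-fold higher level. As a description, *Ppp1r3e* had a log2 fold change of 5.56 (SE 0.34), against 9 reads in all in WT ESCs, and *Ppp1r3d* one of 4.34 (SE 0.76), against 1 and 9 reads. The log2 fold changes were 3.94 for *Gbe1* (SE 0.22, FDR 1.2e-04), 2.51 for *Ppp1r3f* (SE 0.21, FDR 3.5e-04) and 2.41 for *Pygb* (SE 0.25, FDR 7.1e-04). Without ESC WT replicate 2, the WT library with many feeder markers, the log2 fold changes of *Ppp1r3c*, *Ppp1r3e* and *Ppp1r3d* were 7.76, 5.98 and 6.38.

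*Gys1* stood out among the enzymes by its high level in ESCs, at 226 and 164 CPM beside 283, 172 and 283 CPM in NPCs, groups that overlapped (log2 fold change 0.44, 95% interval -0.22 to 1.11, FDR 0.182 in the edgeR test). *Ppp1r3b* had a log2 fold change of 1.22 (FDR 0.147) and *Stbd1* of 0.54 (FDR 0.528), and *Ppp1r3g*, as a description, one of 2.93. NPC WT replicate 2 decided the calls of 2 members, since without it *Ppp1r3b* (1.58, FDR 0.0236) and *Gys1* (0.63, FDR 0.0206) were called as well.

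Between WT PFC and WT STR, 2 of 10 members were called higher in PFC in the edgeR test, beside 13% of all genes called higher, and 0 were called lower, beside 11.4%. *Ppp1r3g* was higher by 0.52 on the log2 scale (SE 0.12, 95% interval 0.26 to 0.77, FDR 0.00816), and no PFC sample was as low as an STR sample. *Gys1* was at 29.6, 35.4 and 30.6 CPM in PFC and 23.8, 26.6 and 23.4 CPM in STR, a log2 fold change of 0.35 (SE 0.11, 95% interval 0.11 to 0.60, FDR 0.0408). That call was lost in DESeq2 (FDR 0.0742) and without any one of the 3 STR samples or PFC replicate 2 (FDR 0.0519 to 0.149). *Ppp1r3e* was higher in every WT PFC than in every WT STR sample, as were 21.8% of all genes tested (log2 fold change 0.48, SE 0.18, 95% interval 0.08 to 0.88, FDR 0.0797).

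Samples of the same number and genotype deviated together in the 2 regions, so the comparison was also fitted with the replicate number as a block. With that block 4 members were called, with an FDR in edgeR of 0.00241 for *Ppp1r3g*, 0.00780 for *Gys1*, 0.0196 for *Ppp1r3e* (log2 fold change 0.46) and 0.0103 for *Stbd1* (0.89, and FDR 0.316 without the block). *Stbd1* was also called without PFC replicate 2 (1.39, FDR 0.0167). The other 6 members had log2 fold changes between 0.03 (*Ppp1r3f*) and 0.34 (*Ppp1r3b*) between the regions, and none was called.

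Per kilobase of exons, the order of the members changed from tissue to tissue. In WT ESCs *Gys1* had the highest RPKM (40.8 ± 9.06, SD, n = 2), followed by *Pygb* (12.8 ± 0.239), and every targeting subunit was at 1.24 RPKM or less on average. In WT NPCs *Ppp1r3c* led with 176 ± 28.3 RPKM (SD, n = 3), above *Pygb* (63.4 ± 17.3), *Gys1* (51.4 ± 13.4) and *Gbe1* (28.9 ± 5.51). *Ppp1r3e* was the fifth of the 10 and the second of the subunits in WT NPCs, at 7.53 ± 1.07 RPKM, and the ninth of the 10 in KO NPCs, at 1.79 ± 0.344 RPKM. In KO NPCs the subunits *Ppp1r3b*, *Ppp1r3d*, *Ppp1r3f* and *Ppp1r3g* were above it on average, at 2.25 to 3.06 RPKM, though the ranges of *Ppp1r3b* and *Ppp1r3g* included that of *Ppp1r3e*.

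In both brain regions *Pygb* led (39.7 ± 1.27 RPKM in WT STR and 42.8 ± 3.29 in WT PFC, SD, n = 3), and *Ppp1r3c* (20.7 ± 1.95 and 22.8 ± 3.28) and *Ppp1r3f* (9.54 ± 0.649 and 9.85 ± 0.941) were the most abundant subunits. *Gys1* was at 5.14 ± 0.368 RPKM in WT STR and 6.66 ± 0.653 in WT PFC, close to *Ppp1r3g* (5.12 ± 0.171 and 7.43 ± 0.263). *Ppp1r3e*, at 4.22 ± 0.339 and 5.97 ± 1.35 RPKM, was the seventh and the sixth of the 10. *Ppp1r3b* was the lowest member in all 4 brain groups, at 0.287 to 0.405 RPKM on average.

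**Figure D4:**
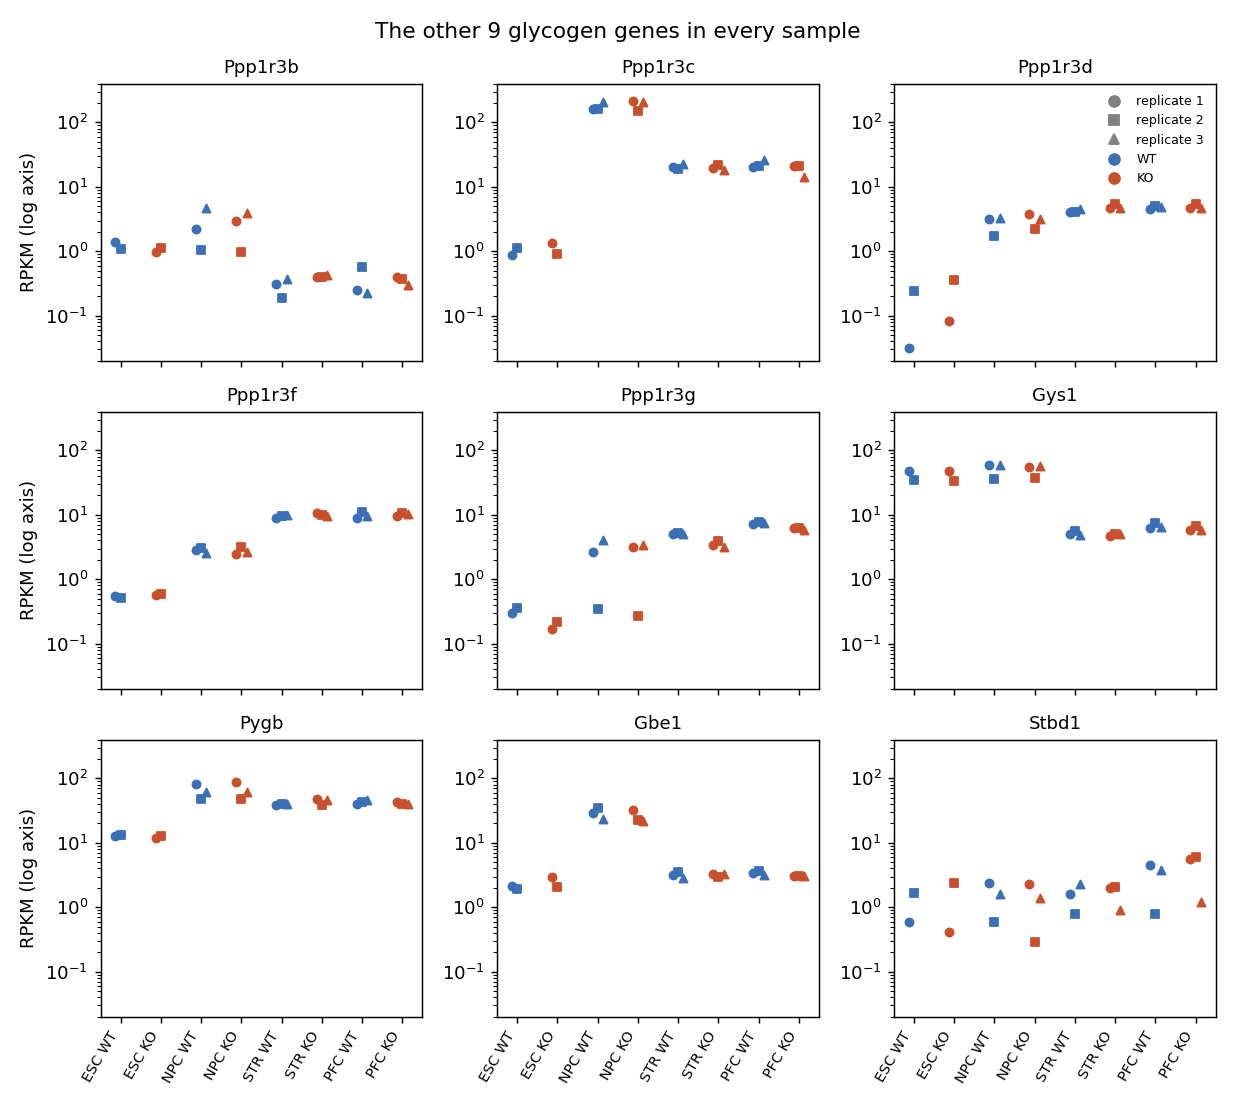
Levels of the other 9 members (vertical axes, RPKM, log scale, the same range in each panel) in each sample, grouped by tissue and genotype, with symbols for replicate numbers. *Ppp1r3c* lies at 152 to 213 RPKM in NPCs and near 1 RPKM in ESCs, *Gys1* is high in both cultured cell types, and WT and KO samples lie side by side in most panels.

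Other genes of glycogen metabolism were taken from a list of 34 symbols, of which 33 were counted and 31 were tested in each comparison. In the KO comparisons outside NPCs 0 of 31 were called in edgeR, in ESCs, STR, PFC or these tissues together, and 1, 2, 4 and 4 had an unadjusted p under 0.05, beside 1.13%, 8.70%, 11.2% and 8.31% of all genes. Their medians on the log2 scale were -0.0006 in ESCs, 0.04 in STR and -0.01 in PFC. The smallest FDR was that of *Slc2a1*, the glucose transporter of the blood-brain barrier, in PFC (log2 fold change -0.29, SE 0.07, FDR 0.0911). All 3 endothelial markers also had a negative log2 fold change in KO PFC, from -0.30 to -0.17 (0 called). Their sums overlapped, at 163 to 208 CPM in WT and 142 to 186 CPM in KO samples. The part of these markers in the value of *Slc2a1* was not tested. Between WT NPCs and WT ESCs 24 of 31 were called, 17 higher and 7 lower in NPCs, beside 71.2% of all genes called. *Epm2a*, the phosphatase laforin (2.57, SE 0.31, FDR 0.00111), and *Gyg*, the primer protein glycogenin (2.57, SE 0.33, FDR 0.00149), were higher in NPCs, and the glucose transporter *Slc2a3* was lower (-2.72, SE 0.35, FDR 0.00153). Between WT PFC and WT STR 11 of 31 were called, 5 higher and 6 lower in PFC, beside 24.4% of all genes called. Among the larger differences were those of *Ppp1r2*, an inhibitor of protein phosphatase 1 (-0.95, SE 0.08, FDR 2.0e-05) and *Pgm2l1*, which makes glucose 1,6-bisphosphate (0.86, SE 0.10, FDR 1.2e-04).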

How the data were processed

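RNA was sequenced from ESCs, NPCs, STR and PFC with the TruSeq kit. Deposited were whole-number counts for each gene, which the authors made with STAR (mm10/GRCm38) and HTSeq on Ensembl release 75 genes. CASAVA 1.7 is named in the submitters' processing notes, and other versions are not given in the sources used here. Reads aligned to several places (33.2% to 45.5% in cultured cells, 7.62% to 8.90% in brain) were not counted. Groups and replicate numbers came from the labels. Names and exon lengths came from GENCODE M21, which matched 37607 of 39179 identifiers holding 99.7% of counts. RPKM was computed here. Counts were tested over all genes with edgeR 4.0.16 in R 4.3.3 (quasi-likelihood, robust, TMM, filterByExpr, two-sided, Benjamini-Hochberg, FDR under 0.05), and the 95% intervals use the fitted degrees of freedom. The pipeline was tested on simulated data. Alternatives were DESeq2 1.42.0, RLE size factors, no filter, a log2 fold change beyond 1, samples or tissues left out, KO samples added to the WT comparisons and a replicate block. Settings without KO STR replicate 1 in fits over several tissues, and a block shared by the regions, were chosen after seeing the data. Members and lists were chosen with earlier results of these data known. The text names all members, glycogen genes past the threshold or with the 3 largest differences between WT tissues, neighbours of *Ppp1r3e* within 100 kb and the 5 genes most like it. *Slc2a1* was named after its value was seen. One gene that this rule names is not reported here. Same-numbered WT and KO samples deviated together in NPCs (r 0.474 to 0.688) but not in STR (-0.02 to 0.12) or PFC (-0.03 to 0.04). ESCs have only 2 pairs (r 0.845). Same-numbered STR and PFC samples of a genotype correlated at 0.13 to 0.35. Exact tests of 3 against 3 samples cannot go below p = 0.1, and none is used.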

Additional observations from a re-analysis of the deposited data

How the results depend on the processing

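Outside the NPC comparison, of 633 values under alternatives, 578 kept their direction and side of the threshold, 38 changed sign, 12 passed and 5 lost the threshold. The number of samples and the spread between them limit these results, and the causes below were not tested unless fewer samples are the setting itself. Genes called, first as reported, were 0 in ESCs (3 in DESeq2, 513 with the replicate block), 1 in NPCs (3 in DESeq2, 2 without a filter, 3 with the block, 0 without any one replicate), and 0 in STR (60, 27 and 8 in the same order, 0 to 2 without one replicate). In PFC they were 98 (182 in DESeq2, 379 without a filter, 18 with a log2 fold change beyond 1, 2 to 154 without one replicate). For ESCs, STR and PFC together they were 5 (77 in DESeq2, 2 without a filter, 37 with the replicate block, 56 without ESCs, 1 without STR, without PFC or without KO STR replicate 1). For WT PFC against WT STR they were 3791 (6438 with KO samples added), and for PFC minus STR 1 (19 in DESeq2, 2 without a filter, 12 with the block shared by the regions, 3 without KO STR replicate 1). Members called were 0 in the 3 tissues together and 1 in DESeq2, and 2 for WT PFC against WT STR (1 in DESeq2, 4 with the replicate block, 1 to 3 without one replicate). Outside NPCs the block changed no other call of a member.

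NPC values carry no test. Over 11 alternatives *Ppp1r3e* ran from -2.22 to -1.93 there. It was chosen for its large fall in these same libraries, so nothing is read from its keeping that sign. Of the 10 members, 7 took both signs, over ranges of -0.44 to 0.67 (*Ppp1r3b*), -0.065 to 0.36 (*Ppp1r3d*), -0.14 to 0.045 (*Ppp1r3f*), -0.58 to 0.56 (*Ppp1r3g*), -0.23 to 0.15 (*Gys1*), -0.19 to 0.29 (*Pygb*) and -0.86 to 0.28 (*Stbd1*). Outside NPCs, values that changed sign were all of members not called. With the replicate block they were *Ppp1r3e* in STR (-0.043) and *Ppp1r3b* in PFC (0.014). In the 3 tissues together they were *Gbe1* without ESCs (-0.065), *Ppp1r3b* (-0.12) and *Pygb* (-0.061) without STR, *Ppp1r3c* (0.0062) and *Ppp1r3e* (0.021) without PFC, and *Pygb* without KO STR replicate 1 (-0.013). With KO samples added, *Pygb* in WT PFC against WT STR was -0.017, and without KO STR replicate 1 *Ppp1r3f* in PFC minus STR was 0.011. Without one replicate in turn the ranges of values that changed sign were, in ESCs, *Ppp1r3c* -0.074 to 0.39, *Gys1* -0.21 to 0.21, *Stbd1* -1.53 to 1.28, *Pygb* -0.19 to 0.034, in STR, *Gys1* -0.086 to 0.0029, *Stbd1* -0.23 to 0.46, *Ppp1r3c* -0.12 to 0.026, *Ppp1r3e* -0.40 to 0.28, *Gbe1* -0.062 to 0.083, in PFC, *Ppp1r3d* -0.053 to 0.061, *Ppp1r3f* -0.017 to 0.13, *Ppp1r3b* -0.30 to 0.57, in WT NPCs against WT ESCs, *Stbd1* -0.015 to 1.44, in WT PFC against WT STR, *Ppp1r3f* -0.052 to 0.087, *Ppp1r3b* -0.28 to 0.56, *Ppp1r3c* -0.0080 to 0.18.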
